A study of Folsomia candida with 36 samples.

Results

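The genes described here are the 50 whose level in the springtail Folsomia candida tracked imidacloprid most closely after 48, 60 and 72 h on treated soil. They were taken from 28734 gene models in the deposited table, of which 15805 had a mean of at least 1 CPM (counts scaled to a common library total) over all libraries. For each of these 15805 genes the mean of its time point was subtracted from log2(CPM + 0.5) in the 18 libraries of 48, 60 and 72 h, and the result was correlated (Pearson) with treatment. The 50 genes were chosen by these late values, as those with the highest correlation, and are called the late-selected genes below. Being higher in exposed animals at 48, 60 and 72 h is therefore the selection rule and not a finding. The libraries of 12, 24 and 36 h took no part in the correlation, and the tests below are made in those libraries.

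Folsomia candida is a parthenogenetic soil arthropod on which the toxicity of soils is commonly tested. All groups were wild-type (WT) animals of the Berlin Strain, sequenced as whole bodies in pools of 70. Exposed pools lived on the natural soil LUFA2.2 with imidacloprid at 0.25 mg per kg dry soil, the concentration given as lowering reproduction by 20% (EC20), and control pools lived on the same soil mixed with water only. Both treatments were sampled at 12, 24, 36, 48, 60 and 72 h, with 3 libraries in each of the 12 groups. The sources used here do not give the age of the animals, and the labels do not say whether the pools of a group shared a jar, so p-values measure the spread between these libraries.

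Imidacloprid is a neonicotinoid, an agonist of nicotinic acetylcholine receptors, the ion channels that carry excitatory signals between neurons of the arthropod central nervous system. The compound is broken down in arthropods mainly by oxidation, in which cytochrome P450 enzymes take part, followed by conjugation and export. Genes of these steps are commonly induced when arthropods meet insecticides. Whether any of the late-selected genes belongs to them is not analysed here, because 0 of the deposited identifiers matched any of 27231 genes in a RefSeq table for this species. The genes are therefore given by identifier, without product, coordinates or sequence, and the tissue label could not be checked against marker genes. In whole animals, more RNA per cell and more cells of a kind cannot be told apart.

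Libraries held 20280135 to 42146055 counts (median 25542483), and 3 counts, taken as the detection floor, corresponded to between 0.0712 and 0.148 CPM. The late-selected genes lay well above it, with 5 of their values over the 36 libraries under 3 counts and 1 of these at 0. Their mean levels ran from 1.19 to 378 CPM with a median of 10.4, against a median of 18.3 over the 15805 genes. Of the 50, 13 averaged under 5 CPM and 7 averaged at least 50 CPM. A set of 108 other genes, none of them late-selected, switched together between libraries. It was high in 11 libraries, 4 of controls and 7 of exposed animals, of which 4 belonged to 12, 24 and 36 h (imidacloprid 12 h replicates 2 and 6, imidacloprid 24 h replicate 3 and control 36 h replicate 5), and the median differences below are also given without these libraries.

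The correlation that chose the genes ran from 0.967 down to 0.741, with a median of 0.779, and 5 genes reached at least 0.9. The selection boundary was not a gap. The last gene taken, Fcan01_19849, had a correlation of 0.74137 and a mean of 1.41 CPM, and stood 0.21, 0.54 and 0.37 higher (log2) in exposed animals at 48, 60 and 72 h. The next gene in the order, Fcan01_05954, had a correlation of 0.741221 and a mean of 2.23 CPM, and stood 0.94, 0.47 and 0.47 higher. Leaving out each late library in turn returned 36 to 47 of the 50 genes, and 27 were returned every time. Leaving out the 7 late libraries in which the co-varying set was high returned 9 of the 50 genes from the 11 libraries left.

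In the late libraries, which chose them, the 50 genes were between 1.29-fold and 6.19-fold higher in exposed animals as the mean of the 3 time points, with a median of 1.93-fold. The median difference at 48, 60 and 72 h was 1.04, 0.89 and 0.96 (log2), and the largest late difference lay at these times in 30, 9 and 11 genes. These values are a description and have no test.

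**Figure D1:**
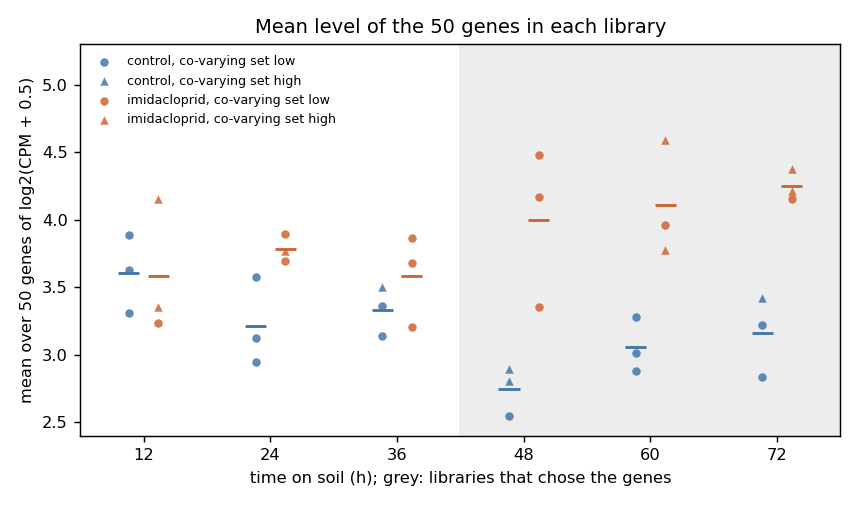
Mean of log2(CPM + 0.5) over the 50 late-selected genes (y axis) in each library, by hours on soil (x axis), for control (blue) and imidacloprid (orange). Horizontal lines are group means, triangles mark libraries in which the co-varying set of 108 genes was high, and the grey area holds the libraries that chose the genes. At 24 h the exposed libraries lay at 3.69 to 3.89 and the controls at 2.95 to 3.57, while at 12 and 36 h the groups overlapped.

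The mean level of the 50 genes gives their course in each library. At 12 h it was 3.61 ± 0.29 (SD, n = 3) in controls and 3.58 ± 0.50 (SD, n = 3) in exposed animals on the log2(CPM + 0.5) scale, and the groups overlapped over most of their range. At 24 h it was 3.21 ± 0.32 in controls and 3.79 ± 0.10 in exposed animals, with no overlap. At 36 h the values were 3.33 ± 0.19 and 3.58 ± 0.34, and 1 exposed library, replicate 6 at 3.21, lay below control libraries. From 48 h, where the choice of genes fixes the direction, controls stood at 2.75 ± 0.18, 3.06 ± 0.20 and 3.16 ± 0.30 and exposed animals at 4.00 ± 0.58, 4.11 ± 0.43 and 4.25 ± 0.11. Together the 50 genes took from 0.0644% of all counts in control 48 h replicate 4 to 0.397% in imidacloprid 60 h replicate 3.

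The late levels lay away from those of 12 h in both treatments. In controls the median over the 50 genes of the difference from 12 h was -0.23, -0.09, -0.64, -0.42 and -0.27 (log2) at 24, 36, 48, 60 and 72 h. In exposed animals it was 0.16, -0.01, 0.43, 0.43 and 0.51. The last 3 values of each are from libraries that chose the genes and have no test. At 48 h, 44 of the 50 genes stood below their 12 h level in controls and 35 stood above it in exposed animals. Over all 15805 genes the same medians lay between 0.00 and 0.10 in either treatment. Of these genes, 7307 stood below their 12 h level in controls at 48 h and 8350 above it in exposed animals. Among ranks 51 to 100 the counts were 44 and 33.

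Within some groups the mean level of the late-selected genes averaged higher in libraries with the co-varying set high, always with 1 library against 2. At 12 h the 2 exposed libraries with the set high averaged 0.52 above the other exposed library. They stood at 4.15 (replicate 2) and 3.35 (replicate 6) against 3.23, so most of this came from replicate 2. In control 36 h the 1 library with the set high stood 0.26 above the others, whereas in imidacloprid 24 h the difference was -0.02. In the 4 late groups that held both kinds of library the difference was 0.14 to 0.39. In imidacloprid 60 h, replicate 5 with the set high stood at 3.78, below replicate 1 with the set low at 3.96. Without the libraries with the set high the median difference between treatments at 12, 24 and 36 h was -0.22, 0.47 and 0.17, with 10, 42 and 31 of the 50 genes above 0. The 12 h value rests on 1 exposed library, the 24 h value on 2 exposed libraries and the 36 h value on 2 controls.

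The question put to the early libraries was when the late-selected genes began to differ. At 12 h they did not stand apart: 23 of the 50 had a higher mean in exposed animals, and their median difference was -0.02 (log2). At 24 h 41 of the 50 were higher, with a median difference of 0.41, and 14 stood more than 2-fold higher. At 36 h 29 were higher, with a median of 0.12, and 9 stood more than 2-fold higher. The median over all 15805 genes was 0.00, 0.00 and 0.03 at these times. Of all these genes 7921, 7882 and 8306 had a higher mean in exposed animals, and 212, 157 and 207 stood more than 2-fold higher. The 29 of the 50 that were higher at 36 h were thus near the share of all genes. The genes ranked 51 to 100 had medians of -0.04, 0.16 and 0.04, and the 50 genes at the opposite end of the order had medians of -0.02, -0.07 and -0.08.

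**Figure D2:**
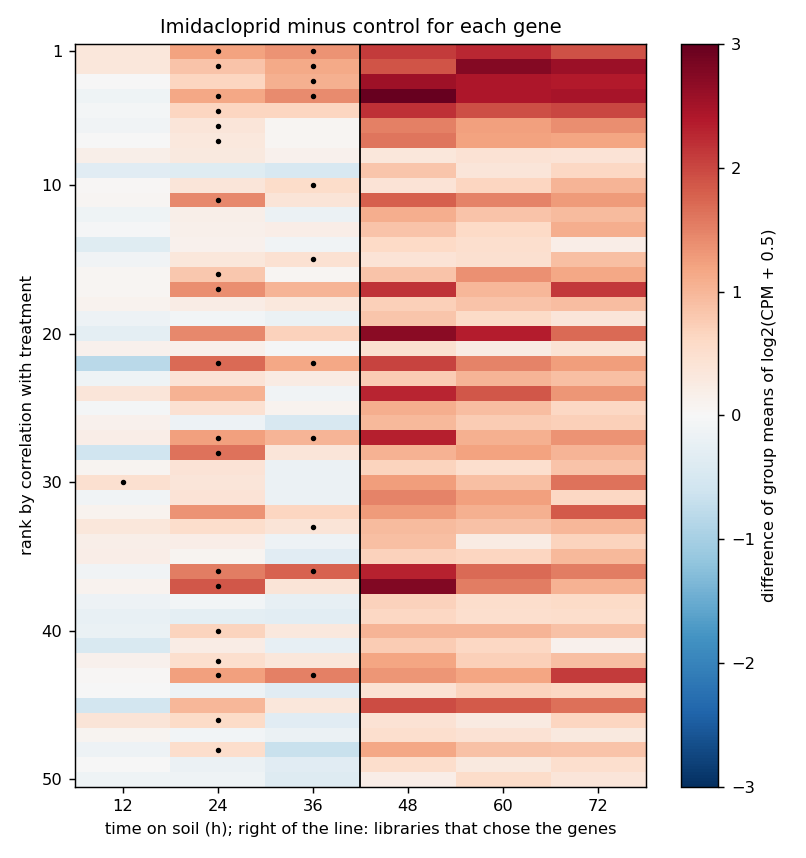
Difference between imidacloprid and control in group means of log2(CPM + 0.5) (colour, from -3 to 3) for each late-selected gene (rows, by rank of correlation) at each time point (columns). Dots mark early time points at which all 3 exposed libraries lay above all 3 controls: 1, 19 and 11 genes in the order of time; columns right of the line hold the libraries that chose the genes.

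Counts of genes whose libraries did not overlap gave the same order. At 12 h all 3 exposed libraries lay above all 3 controls for 1 of the 50 genes, against 1.54% of the 15805 genes. At 24 h this held for 19 of the 50 (38%), against 3.23% of all. At 36 h it held for 11 of the 50 (22%), against 13.6% of all, so the share of all genes was itself large at that time. For 7 of the 50 (14%) it held at both 24 and 36 h, against 0.487% of all genes. Among ranks 51 to 100 the counts were 1, 9 and 7 at the 3 times and 2 at both 24 and 36 h. Among the 50 genes at the opposite end they were 4, 0 and 6, and 0 at both 24 and 36 h.

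Single libraries moved these counts. Without control 24 h replicate 3 the exposed libraries lay above the controls for 36 of the 50 genes (72%), against 7.86% of all genes. Without imidacloprid 36 h replicate 6 they did so for 21 of the 50 (42%), against 15.6% of all. At 12 h the count was 4 (8%) without imidacloprid 12 h replicate 5, against 5.43% of all, and 2 (4%) without control replicate 3, control replicate 6 or imidacloprid replicate 6, against 4.11%, 3.93% and 3.36% of all, which is near the share of all genes. With 2 libraries against 3, more genes of any kind are free of overlap.

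By onset the 50 genes fell into 5 classes. Because the values of 12, 24 and 36 h define the classes, their medians at these times follow in part from the sorting. The exposed libraries lay above the controls at both 24 and 36 h for 7 genes, at 24 h but not 36 h for 12, at 36 h but not 24 h for 4, Fcan01_17957 among them, at 12 h alone for 1 and at none of these times for 26. The 7 genes with both had median differences of 0.05, 1.22 and 1.35 at 12, 24 and 36 h, and the late values that chose them had medians of 2.10, 1.70 and 1.92. The 12 genes of 24 h alone had medians of 0.02, 0.66 and 0.33 at the early times. The 26 genes without a clear early gap had medians of -0.05, 0.17 and -0.17 early and 0.76, 0.61 and 0.63 late. Over all 15805 genes the exposed libraries lay above the controls for 1.54%, 3.23% and 13.6% at 12, 24 and 36 h. For 0.487% of all genes this held at both 24 and 36 h. The 1 gene of 12 h alone and the 4 of 36 h but not 24 h were near or under the shares of all genes.

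**Figure D3:**
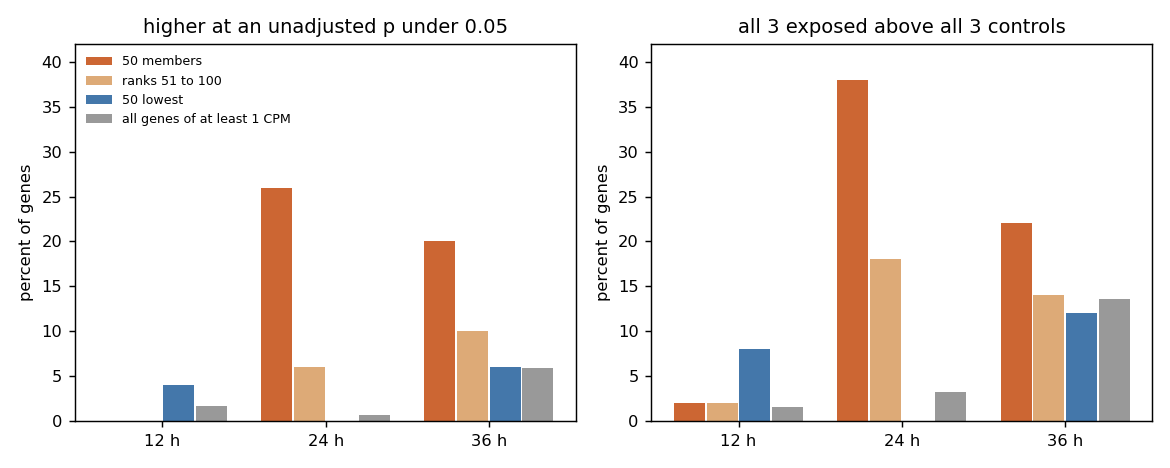
Percent of genes (y axis, from 0) that were higher in exposed animals at an unadjusted p under 0.05 in the early fit (left) or had all 3 exposed libraries above all 3 controls (right), at 12, 24 and 36 h. Bars are the 50 late-selected genes, ranks 51 to 100, the 50 lowest and all genes of at least 1 CPM; at 24 h the late-selected genes stood at 26% (left) and 38% (right).

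The treatment effect was tested gene by gene with edgeR's quasi-likelihood test on the 18 early libraries, with p-values adjusted by Benjamini-Hochberg over 18775 genes, all 50 late-selected genes among them. No late-selected gene passed an adjusted p of 0.05 at 12, 24 or 36 h, in their mean or in the change after 12 h. No gene of the table was called higher in any of these comparisons either (0%), and 1 was called lower at 36 h and 1 in the mean. With 3 libraries against 3 the median standard error of the fold change (log2) was 0.33 over all genes tested and 0.37 over the late-selected genes at a single time point.

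At an unadjusted p under 0.05 the late-selected genes made up a larger share of the higher genes at 24 and 36 h than at 12 h. At 12 h 0 of the 50 were higher at that level, against 2.79% of all genes tested. At 24 h it was 13 of the 50 and none lower, against 0.911% of all genes higher. At 36 h it was 10 of the 50 and none lower, against 5.27%. Of the whole table, 13 genes (0.0692%) were higher at this level at both 24 and 36 h, and 9 of these 13 were late-selected genes. The 2 times have separate libraries but share 1 fit and its dispersion estimate for each gene. Their p-values are therefore not independent. In the mean of the 3 times 12 of the 50 were higher, against 2.21% of all, and 1, Fcan01_25611, was lower. The number of genes at this level without any effect would be 938.75, and 751, 402 and 2252 were found at 12, 24 and 36 h in both directions.

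The counts depended on single libraries. The share of all genes at this level in each fit with a library left out is not given here, so these counts cannot be set against it. At 24 h the count was 8 to 17 when each early library was left out, the lowest without control 24 h replicate 6, and at 36 h it was 5 to 11, the lowest without control 36 h replicate 4 or imidacloprid 36 h replicate 2. The genes called in the whole table for the mean of the 3 times went from 1 to 48 without imidacloprid 12 h replicate 2, to 21 without imidacloprid 36 h replicate 2, to 19 without control 12 h replicate 2 and to 2 without control 24 h replicate 6.

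DESeq2's Wald test on the same 18 libraries called more genes, the late-selected ones included. At 12 h it called 0.0388% of genes higher and 0 of the 50. At 24 h it called 7 genes higher (0.0373%), of which 1 was late-selected, Fcan01_01320. At 36 h it called 14 higher (0.0792%), and 4 of these were late-selected: Fcan01_08638, Fcan01_17957, Fcan01_17452 and Fcan01_26166. In the mean of the 3 times it called 21 higher (0.112%), and 5 of these were late-selected: Fcan01_08638, Fcan01_10767, Fcan01_17452, Fcan01_26166 and Fcan01_27829. Under limma-voom 0 of the 50 were called in any comparison.

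Whether the treatment difference changed after 12 h was tested as the effect at 24 and 36 h minus the effect at 12 h. By edgeR no gene was called higher (0%), and at an unadjusted p under 0.05 the effect was larger after 12 h for 6 of the 50, against 1.58% of all genes. This count was 17 without imidacloprid 12 h replicate 2, 11 without imidacloprid 36 h replicate 6, 2 without imidacloprid 12 h replicate 5, and 3 without replicate 6 of 12 h, replicate 3 of 24 h or replicate 2 of 36 h of the exposed animals. The share of all genes at this level in each of these fits is not given here either. DESeq2 called 1 gene of the table with a larger effect after 12 h (0.00533%), which was the late-selected Fcan01_01320.

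**Figure D4:**
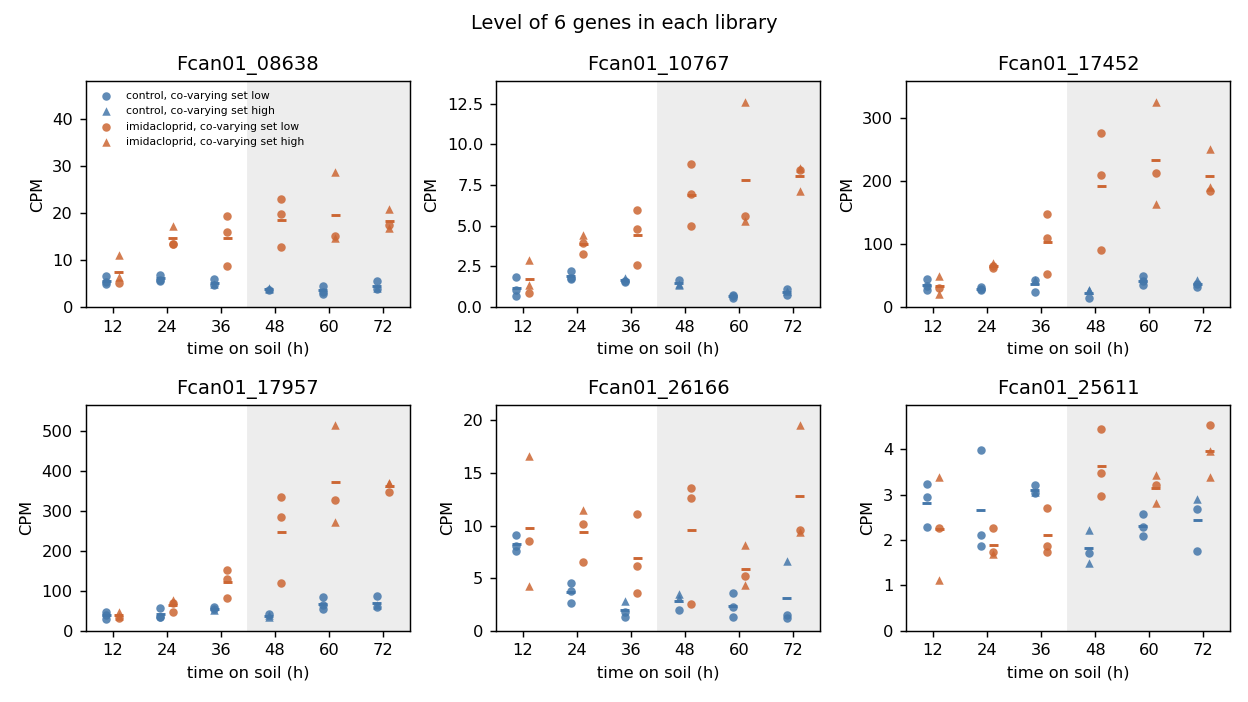
Level in CPM (y axis, from 0, a scale for each gene) of 6 late-selected genes in each library, by hours on soil (x axis), for control (blue) and imidacloprid (orange). Horizontal lines are group means, triangles mark libraries with the co-varying set high and the grey area holds the libraries that chose the genes. In Fcan01_08638 and Fcan01_10767 all exposed libraries lie above all controls at 24 and 36 h, and in Fcan01_25611 the exposed libraries lie below the controls at 36 h.

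Fcan01_08638 had the highest correlation, 0.967. Its controls stood at 4.87, 6.58 and 5.35 CPM at 12 h and its exposed libraries at 11.1, 5.10 and 6.32 CPM. At 24 h controls stood at 5.61, 5.77 and 6.92 CPM and exposed libraries at 13.4, 17.2 and 13.5 CPM. At 36 h the levels were 6.02, 4.63 and 4.97 CPM against 16.0, 19.3 and 8.67 CPM. The groups overlapped at 12 h and were apart at 24 and 36 h. The fitted level was 1.34-fold, 2.42-fold and 2.77-fold higher in exposed animals in the order of time, with a standard error of 0.34 to 0.35 on the log2 scale and adjusted p = 1.0, 1.0 and 0.300 by edgeR's quasi-likelihood test. Its mean early effect, 2.08-fold (log2 1.06 ± 0.20), had the smallest adjusted p of the 50 genes, 0.0736 by edgeR's quasi-likelihood test, which was 0.0453 with size factors by the RLE method, 0.0465 without imidacloprid 12 h replicate 2 and 5.00e-05 by DESeq2, and ran up to 0.901 over all alternatives. In controls the gene averaged 3.80 ± 0.23, 3.54 ± 0.86 and 4.50 ± 0.84 CPM (SD, n = 3) at 48, 60 and 72 h, below its 12 h mean of 5.60 ± 0.88 CPM. In exposed animals it averaged 18.5 ± 5.24, 19.5 ± 7.93 and 18.3 ± 2.17 CPM, so that the exposed level at 24 h, 14.7 ± 2.15 CPM, was within the late spread.

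Fcan01_10767, the second in the order with 0.964, was a gene of low level with the largest difference of the 50 at 72 h. Its controls stood at 1.72, 2.23 and 1.82 CPM at 24 h and its exposed libraries at 3.94, 4.41 and 3.25 CPM. At 36 h the levels were 1.61, 1.53 and 1.80 CPM against 4.77, 5.97 and 2.60 CPM. The groups did not overlap at either time, and the differences of 2.03-fold and 2.65-fold had an adjusted p of 1.0 and 0.409 by edgeR's quasi-likelihood test. At 72 h the 3 controls lay between 0.736 and 1.08 CPM and the 3 exposed libraries between 7.15 and 8.54 CPM. Its controls had averaged 1.92 ± 0.27 CPM (SD, n = 3) at 24 h and stood at 0.659 ± 0.0969 CPM at 60 h.

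Fcan01_17452 was among the most abundant late-selected genes, with a mean of 86.7 CPM, and had the largest late difference of the 50, 6.19-fold. At 12 h its controls stood at 26.9, 44.4 and 33.7 CPM and its exposed libraries at 50.1, 30.03 and 20.03 CPM, a wide overlap. At 24 h the controls stood at 31.7, 28.9 and 27.3 CPM and the exposed libraries at 65.7, 69.5 and 62.9 CPM, with no overlap. At 36 h the levels were 43.8, 23.3 and 42.3 CPM against 109, 148 and 53.0 CPM. The effect after 12 h exceeded that at 12 h by 1.41 ± 0.46 (log2, SE), with adjusted p = 0.961 by edgeR's quasi-likelihood test. From 36 to 48 h the exposed mean went from 103 ± 47.7 to 192 ± 94.4 CPM (SD, n = 3), a step inside the spread of the libraries.

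Fcan01_17957 and Fcan01_01431 had the highest levels, with means of 127 and 378 CPM. Fcan01_17957 stood at 30.6, 47.0 and 40.6 CPM in controls and 47.1, 32.8 and 37.8 CPM in exposed animals at 12 h. At 24 h it overlapped, at 56.9, 34.5 and 33.5 CPM against 68.5, 77.5 and 47.4 CPM. At 36 h it did not, at 53.5, 59.9 and 53.2 CPM against 129, 153 and 81.8 CPM, a difference of 2.14-fold with adjusted p = 0.306 by edgeR's quasi-likelihood test, and adjusted p = 0.0261 by DESeq2 (range over all alternatives 0.0261 to 0.697). Its exposed mean was 39.2, 64.5, 121, 247, 372 and 363 CPM from 12 to 72 h, and its control mean 39.4, 41.6, 55.5, 38.1, 68.0 and 70.5 CPM. Fcan01_01431 stood at 290.3, 292 and 293 CPM in the exposed libraries of 24 h and at 225, 175 and 165 CPM in the controls. At 36 h its groups overlapped, with exposed libraries at 419.96, 497 and 245 CPM and controls at 263, 195 and 258 CPM.

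Fcan01_01320 had the smallest p of the 50 at 24 h and for the change after 12 h. At 12 h its controls stood at 11.5, 16.8 and 13.5 CPM and its exposed libraries at 10.4, 7.23 and 5.87 CPM, all below the controls. At 24 h the controls stood at 4.56, 5.53 and 3.46 CPM and the exposed libraries at 16.4, 30.5 and 7.46 CPM, all above. At 36 h the levels were 5.88, 2.84 and 5.58 CPM against 11.4, 16.0 and 6.83 CPM, again apart. In the order of time the fitted log2 fold changes were -0.84 ± 0.46 (SE), 2.03 ± 0.47 and 1.23 ± 0.46. The 24 h value had adjusted p = 0.839 by edgeR's quasi-likelihood test and adjusted p = 0.00859 by DESeq2 (range over all alternatives 0.00859 to 1). The change after 12 h was 2.47 ± 0.57 with adjusted p = 0.961 by edgeR's quasi-likelihood test and 0.0188 by DESeq2. Controls held 14.0 ± 2.68 CPM (SD, n = 3) at 12 h and 4.52 ± 1.04 CPM at 24 h, and stayed between 3.82 and 4.77 CPM in mean thereafter.

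Fcan01_26166 and Fcan01_23065 had the largest mean early effects, 2.21-fold and 2.23-fold. In Fcan01_26166 the controls stood at 7.62, 8.10 and 9.11 CPM at 12 h, at 4.52, 3.83 and 2.64 CPM at 24 h and at 1.29, 1.78 and 2.79 CPM at 36 h. The exposed libraries stood at 16.6, 8.55 and 4.27 CPM at 12 h, at 10.1, 11.5 and 6.54 CPM at 24 h and at 6.13, 11.1 and 3.63 CPM at 36 h. The exposed libraries spanned the controls at 12 h and lay above them at 24 and 36 h, while the controls of 36 h lay below all controls of 12 h. The mean early effect had adjusted p = 0.230 by edgeR's quasi-likelihood test and adjusted p = 0.00627 by DESeq2 (range over all alternatives 0.00627 to 0.901). Fcan01_23065 varied more within groups: at 36 h its controls stood at 3.46, 0.328 and 3.21 CPM and its exposed libraries at 8.13, 11.7 and 4.10 CPM, and its mean early effect had adjusted p = 0.720 by edgeR's quasi-likelihood test.

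The smallest mean early effects were negative. Fcan01_25611, ninth in the order, stood at 3.04, 3.20 and 3.06 CPM in controls and 1.73, 2.71 and 1.88 CPM in exposed animals at 36 h, all exposed libraries below the controls. At 48 h, among the libraries that chose it, the order was the opposite, at 2.23, 1.72 and 1.50 CPM against 2.96, 4.45 and 3.46 CPM. Its mean early log2 fold change was -0.46 ± 0.21 (SE), with adjusted p = 0.726 by edgeR's quasi-likelihood test. Fcan01_02287 had a mean early log2 fold change of -0.33 ± 0.18 with adjusted p = 0.728 by the same test, and -0.15 without control 24 h replicate 3. At 24 h its exposed libraries, at 20.7, 20.9 and 21.3 CPM, lay between control libraries at 47.3 and 19.3 CPM.

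Among the genes with a higher fitted level in exposed animals at 12 h, the smallest p belonged to Fcan01_04284 and Fcan01_08925. Fcan01_04284 was the only one of the 50 whose exposed libraries lay above all controls at 12 h, at 168, 155 and 123 CPM against 97.4, 119 and 103 CPM. The difference was 1.38-fold with adjusted p = 1.0 by edgeR's quasi-likelihood test, and at 36 h its exposed mean, 78.5 ± 8.48 CPM (SD, n = 3), lay below its control mean of 89.0 ± 17.3 CPM. On the TMM scale its groups overlapped at 12 h. Fcan01_08925 stood 0.42 ± 0.30 (log2, SE) higher at 12 h with adjusted p = 1.0 by the same test, and at -0.32 without the libraries with the co-varying set high. Its value was 0.09 without imidacloprid 12 h replicate 2, 0.17 without control 12 h replicate 2 and 0.69 without imidacloprid 12 h replicate 5.

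**Figure D5:**
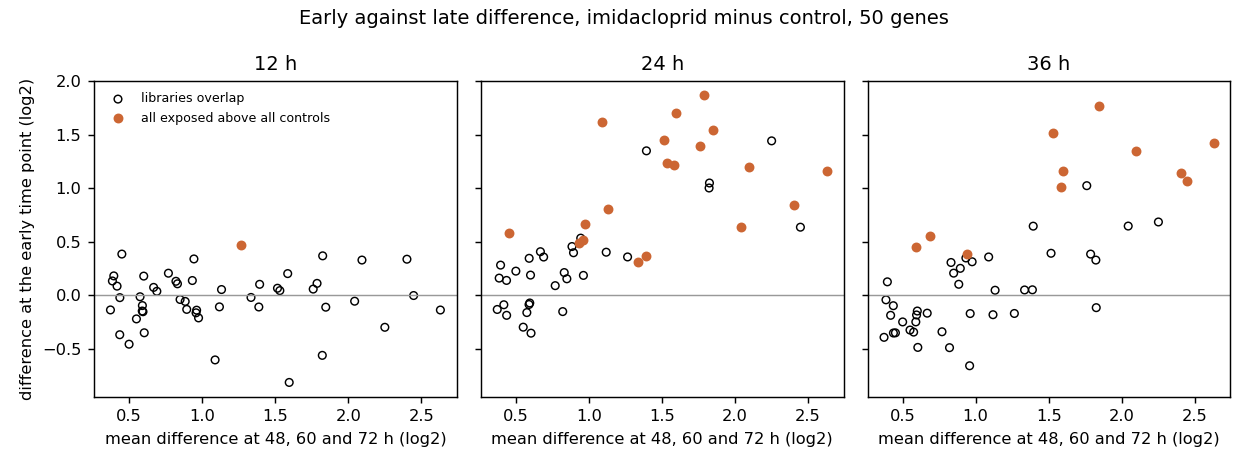
Difference between imidacloprid and control in each late-selected gene at 12, 24 and 36 h (y axis, log2) against its mean difference at 48, 60 and 72 h (x axis, log2), which chose the genes. Filled points are genes with all 3 exposed libraries above all 3 controls. Across the 50 genes Pearson's r was 0.04 at 12 h, 0.73 at 24 h and 0.75 at 36 h.

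Among the 50 genes, those with the larger late difference also had the larger difference at 24 and 36 h. Across genes, Pearson's r between the early and the mean late difference was 0.04 at 12 h, 0.73 at 24 h and 0.75 at 36 h, with Spearman's rho of 0.05, 0.80 and 0.72. Over all 15805 genes Pearson's r was -0.06, 0.09 and -0.40. The genes share their libraries and are not independent, so these are descriptions. The 22 genes with a mean late difference of at least 1 (log2) had median early differences of 0.02, 1.18 and 0.65 at 12, 24 and 36 h. All 22 were higher in exposed animals at 24 h and 19 were at 36 h, and exposed libraries lay above all controls for 15 and 8 of them. The 28 genes under that size had medians of -0.03, 0.19 and -0.17, with 19 and 10 higher at 24 and 36 h. Of all 15805 genes, 7882 and 8306 were higher at 24 and 36 h, and exposed libraries lay above all controls for 3.23% and 13.6%. The split by late size uses values of the libraries that chose the genes.

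Most pairs of late-selected genes were also positively correlated within groups. After the group means of the early libraries were subtracted, the median correlation over the 1225 pairs of genes was 0.44, and 1118 pairs were above 0. Over the 231 pairs of the 22 genes with the larger late difference the median was 0.56. These correlations run over 18 libraries that share depth and the co-varying set, and are descriptions. The median over pairs of other genes is not given here, so they are not shown to be particular to the 50 genes.

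The 50 genes held 2 pairs with consecutive identifiers. Whether consecutive identifiers are neighbours on a chromosome is not stated in the deposited table, and counts of similar copies may be divided between them by the estimation. Fcan01_16433 and Fcan01_16434 had a within-group correlation of 0.88 in the early libraries. At 48 h, among the libraries that chose it, Fcan01_16433 stood at 4.63, 0.231 and 2.63 CPM in controls and 4.04, 34.7 and 19.6 CPM in exposed animals. Its controls had been at 10.6, 49.0 and 30.6 CPM at 12 h, so that libraries of 1 group differed widely. Fcan01_18109 and Fcan01_18110 had a within-group correlation of 0.53. Fcan01_18109 stood at 14.2, 17.5 and 7.26 CPM in controls and 52.4, 36.8 and 50.1 CPM in exposed animals at 24 h, a difference of 3.62-fold with adjusted p = 1.0 by edgeR's quasi-likelihood test. At 36 h it overlapped, at 28.5, 17.4 and 44.5 CPM against 49.8, 53.6 and 18.7 CPM. Fcan01_18110 overlapped at all 3 early times.

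Controls were compared over the same early span, 36 h against 12 h, to see how the genes moved without exposure. By edgeR's quasi-likelihood test 4 genes of the table were called lower (0.0213%) and none of the 50, and at an unadjusted p under 0.05 9 of the 50 were lower and 1 higher, against 5.95% of all genes lower. By DESeq2 4 of the 50 were called lower, against 1.03% of all. Among ranks 51 to 100, 13 were lower at an unadjusted p under 0.05 by edgeR's quasi-likelihood test and 4 were called lower by DESeq2. The fall in controls was therefore not particular to the 50 genes. The smallest p among the 50 belonged to Fcan01_26166, which was 4.36-fold lower in controls at 36 h than at 12 h, with adjusted p = 0.139 by edgeR's quasi-likelihood test. The genes of the table called by edgeR in either direction went from 4 to 30 without control 12 h replicate 2, to 17 without imidacloprid 12 h replicate 2, to 1 without control 36 h replicate 5 and to 0 without control 36 h replicate 3. The 12 h controls also enter the comparison of treatments at 12 h, and the 36 h controls that at 36 h.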

How the data were processed

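The deposited table holds 36 libraries and 28734 gene models. RNA was, per the labels' protocols, extracted with TRIzol, libraries were made with a TruSeq stranded mRNA kit, reads were trimmed by Trim Galore (cut-adapt given as 0.6.7), quantified by Salmon 1.4.0 on the transcriptome, with DESeq2 1.28.1 for normalization. The authors deposited estimated counts, whole numbers throughout (0 were not), whose totals differ between libraries. The release of the transcriptome was not stated there. Reads of near-identical gene copies are shared out by Salmon's estimate, which makes their counts uncertain.

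Here CPM is the count divided by the column total with every library scaled to the same total. Tests used edgeR 4.0.16 in R 4.3.3 on the 18 libraries of 12, 24 and 36 h with a mean for each of 6 groups (12 residual degrees of freedom). The filter was filterByExpr with minimum count 10 and minimum total 15; the 18775 genes kept (65.3%) held 99.96% of the counts. TMM factors ran from 0.916 to 1.08, and the biological coefficient of variation was 32.6%. The late libraries were kept out of the fit, because the genes were chosen for a small spread there. Benjamini-Hochberg adjustment was over all genes of a comparison, with a threshold of 0.05. Standard errors were taken from the log2 fold change and the F statistic of the quasi-likelihood test (its square root). Differences of group means use log2(CPM + 0.5), and the floor of 3 counts covers counting error only. Alternatives were DESeq2 1.42.0, limma-voom (limma 3.58.1), other scalings and filters, a replicate block, a covariate, and libraries left out. Of these steps, only the edgeR fit was run on simulated data, with effects placed in imidacloprid 24 h. Its rate of recovery is not given here, and the other steps were not tested in this way.

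The genes, comparisons and sets were chosen with earlier results of these data known. The rule for named genes took the ends of the correlation order and its boundary, the highest levels, the smallest p-values in each comparison, the largest and smallest early effects, the largest differences at 72 h and consecutive identifiers, with at most 2 per direction. Exceptions chosen after their values were seen are Fcan01_23063, given for its change of sign, Fcan01_27829, given as a call of DESeq2, and the values given for Fcan01_26166 in controls. The deposited identifiers matched 0 of the 27231 genes in a RefSeq gene table, so lists by product were not used. Groups came from the labels. Library numbers in the titles were partly irregular. Imidacloprid 12 h replicate 5 has none, and replicate 6 carries 2, also the number of control 12 h replicate 2. Replicates 5 and 6 are called the irregular titles of 12 h below. Imidacloprid 12 h replicate 2 and control 24 h replicate 6 both carry 8. Imidacloprid 60 h replicate 1 carries 34, between those of imidacloprid 36 h replicates 1 and 2. Whether these titles are in error was not tested. In imidacloprid 72 h, 2 libraries carry replicate number 4 and are told apart by the library numbers 71 and 72. They were counted as 2, because they differed by a chi-square of 128 per degree of freedom, where the 36 pairs of libraries within groups gave 24.2 to 412. Complete linkage (height 0.5) of the genes whose log2 CPM had a variance above 4 gave the co-varying set as its largest cluster.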

Additional observations from a re-analysis of the deposited data

Results flagged for a closer look

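The difference between imidacloprid and control in Fcan01_01320 had opposite signs at 12 h and later, with all exposed libraries below all controls at 12 h and above them at 24 and 36 h. The difference of group means (log2) at 24 h exceeded that at 12 h by 2.52, and that at 36 h by 1.97. The joint change after 12 h was tested and had adjusted p = 0.961 by edgeR's quasi-likelihood test and 0.0188 by DESeq2, with a range of 0.0188 to 1 over all alternatives.

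Fcan01_23063 had all exposed libraries above all controls at 24 h and below them at 36 h. Its controls stood at 3.81, 2.85 and 3.11 CPM and its exposed libraries at 5.06, 4.54 and 5.02 CPM at 24 h, and at 36 h the levels were 4.72, 3.61 and 4.47 CPM against 3.23, 2.27 and 2.13 CPM. The difference of group means at 36 h minus that at 24 h was -1.18 (log2). This difference between the time points was not tested.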

How the results depend on the processing

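Of the 50 genes, 41 were chosen again by Spearman's correlation, 48 with log2(CPM + 2), 42 with TMM-scaled CPM, 37 from genes of at least 5 CPM, 44 with libraries 71 and 72 averaged, 40 without imidacloprid 60 h replicate 1, 36 to 47 without each late library and 9 without the libraries with the co-varying set high, an alternative added after seeing the data. Deviations from group means in early control and exposed libraries of the same replicate number had correlations of -0.34 to -0.04 over 4 pairs. Early pairs of different number ran from -0.58 to 0.71. Late pairs of the same number had -0.14 at 48 h, 0.51 at 60 h, and 0.14 and 0.28 at 72 h. So few pairs cannot decide whether the numbers pair the libraries. With the replicate block, late-selected genes at an unadjusted p under 0.05 numbered 8 at 24 h, 4 at 36 h, 7 in the mean, 3 for the change after 12 h and 4 in controls over time, and genes called were 0 at 36 h, in the mean and in controls. DESeq2 called 7, 22, 86, 117, 6 and 296 genes at 12, 24 and 36 h, in the mean, for the change and in controls, with 1, 4, 5, 1 and 4 of the 50 among them from 24 h on. In the mean, genes called were 10 by limma-voom, 16 with RLE size factors (1 of the 50), 3 with column totals and 5 without a filter on low counts. A filter at 5 CPM in 3 libraries gave 0 genes at 36 h and in the mean, 7 in controls, and 6 of the 50 at 36 h and 3 for the change at an unadjusted p under 0.05. With all 36 libraries in the fit 0 genes were called at 36 h and 20 in controls. With the co-varying set as covariate 2 genes were called at 36 h, and 7 of the 50 in the mean and 10 for the change had an unadjusted p under 0.05. Both of the next alternatives leave 1 exposed library at 12 h, which is assumed to vary like the other groups. Without the irregular titles of 12 h, 2 genes were called at 36 h, and the unadjusted counts were 4 at 12 h, 21 in the mean and 1 for the change. Without the libraries with the co-varying set high, genes called were 0 at 36 h, 0 in the mean and 1 in controls, the unadjusted counts were 7 in the mean and 15 for the change, and Fcan01_08925 at 12 h turned to -0.32. The share of all genes at an unadjusted p under 0.05 under each alternative is not given here. The cause of the differences between alternatives was not tested.

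Leaving out each early library gave unadjusted counts of 0 to 1, 8 to 17 and 5 to 11 at 12, 24 and 36 h, 10 to 18 in the mean, 2 to 17 for the change and 6 to 12 in controls. The share of all genes at that level in these fits is not given here. Genes called were 0 to 2 at 36 h, 1 to 48 in the mean and 0 to 30 in controls, and 0 to 1 of the 50 were called in the mean. The share of the 50 free of overlap was 2 to 8% at 12 h, 38 to 72% at 24 h and 22 to 42% at 36 h, against 3.36 to 12.4%, 6.07 to 10.8% and 15.6 to 24.8% of all genes of at least 1 CPM, and at 12 h it was 0% with TMM-scaled CPM or the 25 highest genes. The median difference was -0.30 to 0.17, 0.33 to 0.53 and 0.01 to 0.34 at 12, 24 and 36 h. Precision at a single time point is limited by 3 libraries a group, with a median standard error of 0.37 (log2) over the late-selected genes.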
